A study of Mus musculus with 8 samples.

Results

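Keratinocytes, the epithelial cells of the skin, were recovered among cells isolated from mouse ankle and wrist joints and sorted for the stroma. They were defined here as barcodes of the 3 unsorted libraries that the deposited cell annotation does not list, with 500 or more genes, at most 10% mitochondrial UMIs (unique molecular identifiers, 1 per captured RNA molecule), 5 or more Krt14 UMIs, 2 or more Krt5 UMIs and 0 Pdgfra UMIs. This gave 349 cells of 47658 barcodes in 4 libraries: 128 in the library of TNF-inhibited mice, 180 in that of IL-17-inhibited mice and 41 in that of untreated arthritic mice. The library sorted for FAP+ Pdpn+ cells held 0 barcodes that met the same limits.

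The TNF-inhibited animals were mice carrying the human TNF transgene hTNFtg197 that received Il23mc for 9 days and an antibody that inhibits TNF. The IL-17-inhibited animals carried the same transgene and received Il23mc and an antibody that inhibits IL-17, and the untreated arthritic animals carried it and received Il23mc with no inhibitor. The healthy animals were wild type and untreated. Each of the 3 libraries pooled 3 arthritic animals of 1 treatment with 1 healthy animal, all from viable CD45- GR-1 cells as the labels spell the gate, and mice were 8 to 10 weeks old. Treatment and library therefore divide the arthritic animals in the same way and cannot be told apart, whereas arthritic and healthy cells can be compared inside each library.

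Basal keratinocytes sit on the basement membrane, divide, and express the keratin pair Krt5 and Krt14. Cells that leave this layer become suprabasal, switch to Krt1 and Krt10, and end in the cornified envelope built from proteins such as loricrin and filaggrin, while the hair follicle and sebaceous gland keep programmes of their own. Keratinocytes answer IL-17, TNF and interferon with antimicrobial proteins, chemokines and antigen presentation molecules, and these answers are best known from psoriatic and wounded skin.

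The animal of each cell was read from its hashtag, a short oligonucleotide on an antibody. Per the study's design text, the antibodies were directed against CD45 and B2m. The 4 oligos are shown because every comparison between animals rests on them, with hashtags 1 to 3 on arthritic animals and hashtag 4 on the healthy animal.
hashtag 1: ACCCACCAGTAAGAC
hashtag 2: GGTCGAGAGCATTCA
hashtag 3: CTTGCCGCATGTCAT
hashtag 4: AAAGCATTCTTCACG
Of the 349 keratinocytes, 260 were given to 1 animal, 83 had no clear hashtag and 6 were called as 2 animals in 1 droplet. The median hashtag count per cell was 1025 to 1506 UMIs in TNF-inhibited animals, 1316 to 1802 in IL-17-inhibited animals, 437 to 1040 in untreated arthritic animals and 221.5 to 744 in healthy animals. Of these, the median count of the animal's own hashtag was 327 to 1473 UMIs in the arthritic animals and 61.5, 136 and 95 UMIs in the healthy animals. B2m RNA of keratinocytes was likewise higher in inhibitor-treated than in untreated arthritic and healthy animals, and the part of the antibody target in the animal calls was not tested.

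The hashtag of the healthy animal held cells of both sexes in 2 libraries. In the TNF-inhibited library 19.2% of its keratinocytes had a Y-linked UMI and 78.8% had Xist UMIs but no Y-linked UMI, and in the IL-17-inhibited library these shares were 24.2% and 66.7%. In the third library all 10 healthy keratinocytes had Xist only. Among arthritic animals, TNF-inhibited 1 and untreated 2, with mostly Y-linked cells, each had 1 keratinocyte with Xist only. Untreated animal 1, with mostly Xist-only cells, had 1 with a Y-linked UMI. Counts of calls, the share test and main genes are also given without the healthy cells that held a Y-linked UMI. This cannot remove cells of TNF-inhibited animal 3 or IL-17-inhibited animals 2 and 3, whose keratinocytes had 0 cells with a Y-linked UMI. Between libraries, 139 pairs of barcodes were the same. Of the keratinocyte barcodes, 4 were also seen in another library, but no keratinocyte barcode was a keratinocyte in 2 libraries.

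The cells were rich in RNA, with a median of 23193 UMIs and 3908 genes. Krt14 and Krt5, which the rule used, stood at 7272 and 2999 CPM over all keratinocytes, where CPM scales the UMI counts to a common total. Lgals7, which encodes the epithelial lectin galectin-7 and was no part of the rule, stood at 5193 CPM and was found in 98.9% of cells, and 4 cells had none. Among the 25 most abundant genes, leaving out mitochondrial and ribosomal protein genes, were also Sfn (4177 CPM), which encodes the epithelial protein 14-3-3 sigma, Ly6d (2963 CPM), a surface protein of stratified epithelium, and the metal-binding Mt1 (5908 CPM) and Mt2 (3154 CPM). Lgals7 stood at 5082 CPM in arthritic keratinocytes and at 8.93 CPM in pooled fibroblasts of the arthritic animals in the same libraries.

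At the border of the rule, the 8 cells with 5 to 9 Krt14 UMIs had 1793 CPM of Lgals7, and the 10 unannotated barcodes left out for 1 to 4 Krt14 UMIs despite 2 or more Krt5 UMIs had 894 CPM. A further 60 barcodes were left out for 0 or 1 Krt5 UMI despite 5 or more Krt14 UMIs, and these had 7693 CPM of Lgals7. The condition of 0 Pdgfra UMIs left out 89 barcodes that met all other limits.

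The keratinocytes fell into 7 groups when clustered on their own RNA, and these followed the known layers and appendages of skin only in part. The levels below describe the clusters, which these same genes formed, and carry no test. A group of 39 cells was suprabasal-like, led by Krt2, Mt4 and Krt10, with 3400 CPM of Krt10 and 880 CPM of Krt1. Genes of the basal list did not all fall with this: Krt15 stood at 1549 CPM, the highest of the 7 groups, and Col17a1 at 635 CPM. Itgb1 was the lowest of the 7 groups at 160 CPM. The name therefore describes the suprabasal keratins only. Another 45 cells were also suprabasal-like, with 2437 CPM of Krt10, 2037 CPM of Krt1, 4775 CPM of Krtdap and the small proline-rich genes Sprr1a, Sprr1b and Sprr2d, which encode precursors of the cornified envelope. Its first gene by fold was Cst6, but 6626 of the 6879 Cst6 UMIs of all keratinocytes lay in 1 droplet that the hashtags called as 2 animals. The Sprr genes also lay largely in few cells of this cluster. The highest cell for each gene held 281 of its 650 Sprr1a UMIs, 267 of its 426 Sprr1b UMIs and 71 of its 179 Sprr2d UMIs.

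Sebaceous gland-like cells numbered 63 and were led by lipid genes, with 1622 CPM of Plin2, which coats lipid droplets, and 977 CPM of Scd1, which desaturates fatty acids. Cycling-like cells numbered 38, with 471 CPM of Mki67 and 489 CPM of Top2a. The remaining 3 groups were given no name. The largest, of 72 cells, had 1167 CPM of Krt15 and 680 CPM of the basal hemidesmosome gene Col17a1, but genes of tendon, mural cells and fibroblasts led it because of few cells: 711 of its 715 Coch UMIs were in 1 cell, and 799 of its 893 Col1a1 UMIs were in 4.

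A group of 57 cells was led by genes of major histocompatibility complex (MHC) class II, and 27 of these cells came from IL-17-inhibited animal 2. The last group of 35 cells was mixed. In 8 of them 5 or more Acta2 UMIs were found, all 8 had Tagln and 7 had Cnn1, which are smooth muscle and myoepithelial genes, and 1 had Lhx2. Of the other 27, 21 had Lhx2 and 19 had Lgr5, regulators and markers of follicle stem cells, and 25 had Krt15.

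The clusters held the groups unevenly, in the order TNF-inhibited, IL-17-inhibited, untreated arthritic and healthy. The cluster of 72 cells held 4, 4, 1 and 37 assigned cells, the sebaceous gland-like cluster 16, 13, 11 and 12, and the MHC class II cluster 7, 37, 2 and 1. The suprabasal-like cluster with Sprr genes held 7, 25, 3 and 0, the one with Krt2 held 5, 2, 1 and 24, the cycling-like cluster 1, 13, 4 and 9, and the mixed cluster 5, 2, 2 and 12. The sums per animal compared below mix these clusters, and genes of the comparisons also shaped them, so that a different mixture and a change within cells cannot be told apart from the sums.

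**Figure D1:**
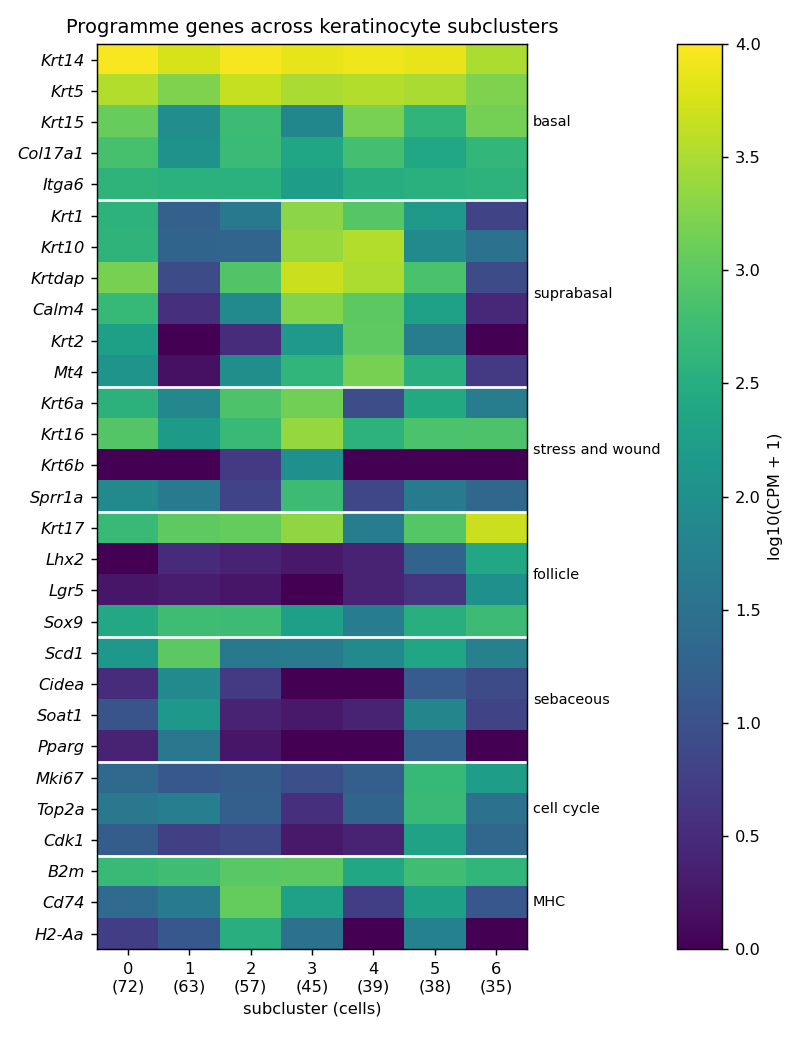
Level of marker genes (rows) in the 7 clusters of keratinocytes (columns), as log10 of CPM + 1 over the pooled cells of a cluster. Krt10 and Krt1 are high in the 2 suprabasal-like clusters of 45 and 39 cells, and Scd1 and Cidea in the sebaceous gland-like cluster. Lhx2 and Lgr5 are high in the mixed cluster of 35 cells, where Krt17 reaches 4820 CPM.

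Several genes of the terminal stages of skin were near 0. The rule bears on this, since it asks for UMIs of the basal pair Krt14 and Krt5, which cells lose as they differentiate. Flg, which encodes filaggrin, had 1 UMI in all keratinocytes, and Lor, which encodes loricrin, stood at 3.64 CPM. Of the 22 genes of the granular and cornified list, 5 had no UMI in any keratinocyte, and neither had 5 of the 19 measured genes of the inner root sheath and hair. Other genes of the granular and cornified list were found, such as Tgm3 at 71.5 CPM in 35.2% of cells, Ivl at 45.9 CPM and Abca12 at 17.1 CPM. The summed level of that list was 81.0 to 253 CPM in arthritic and 219 to 314 CPM in healthy animals. Krt9, the keratin of palm and sole skin, had 1 UMI. Summed levels of the 16 eccrine sweat gland genes were 73.5 to 206 CPM in arthritic animals and 74.7 to 131 CPM in healthy animals, with Krt77, Foxi1 and Cftr undetected.

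Keratinocytes made up a smaller share of the cells of arthritic animals than of healthy animals. Of the barcodes with 500 or more genes and at most 10% mitochondrial UMIs given to an animal, they were 0.402%, 1.08% and 0.959% in the 3 TNF-inhibited animals, from 9, 26 and 10 cells. In the IL-17-inhibited animals they were 1.79%, 2.06% and 0.606%, from 29, 52 and 15 cells, and in the untreated arthritic animals 0.864%, 0.285% and 0.337%, from 9, 7 and 8 cells. In the healthy animals they were 1.14%, 8.33% and 5.79%, from 10, 52 and 33 cells. The healthy share was above that of each of the 3 arthritic animals pooled with it in every library, but healthy animal 1 lay below IL-17-inhibited animals 1 and 2.

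The mean share was 0.930% ± 0.631 in arthritic animals (SD, n = 9) and 5.09% ± 3.65 in healthy animals (SD, n = 3). Averaged over libraries, arthritic minus healthy was -4.16 percentage points, with p = 0.0156 in a two-sided exact permutation test within libraries, the smallest that 64 arrangements allow (adjusted p = 0.0312 over 2 share tests). The difference was -7.52 points in the TNF-inhibited library, -4.31 in the IL-17-inhibited library and -0.65 in the untreated library. Healthy animals also gave fewer barcodes of this quality, 570 to 876 against 1042 to 2529 in arthritic animals, so that fewer other cells and more keratinocytes cannot be told apart. Without the healthy cells that held a Y-linked UMI the difference was -3.98 points (exact permutation test, p = 0.0156, unadjusted). With any healthy animal left out, the exact permutation test gave p = 0.0625, the smallest that the remaining arrangements allow.

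**Figure D2:**
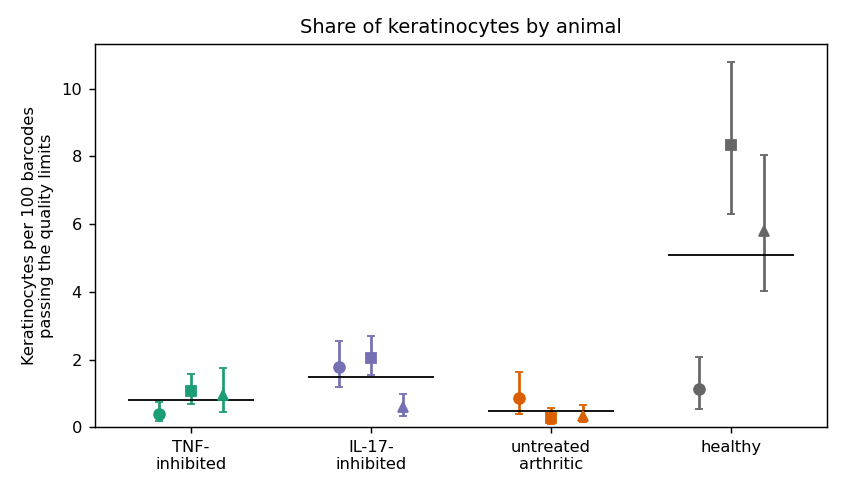
Keratinocytes as a percentage of the barcodes of each animal that passed the limits on genes and mitochondrial UMIs; points are animals, bars are 95% Clopper-Pearson intervals, which cover counting error only. Healthy animals 2 and 3 at 8.33% and 5.79% lie above every arthritic animal, and healthy animal 1 lies at 1.14%.

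Among the arthritic groups the shares were 0.812% ± 0.360 in TNF-inhibited, 1.48% ± 0.772 in IL-17-inhibited and 0.495% ± 0.320 in untreated animals (SD, n = 3 each). These did not differ beyond their spread (F = 2.77, p = 0.136, exact permutation over 1680 assignments, adjusted p = 0.136). Without IL-17-inhibited animal 3, which had 0.606%, F was 12.8 and the adjusted exact p was 0.0143.

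RNA of arthritic and healthy keratinocytes was then compared inside libraries, summing UMIs per animal. With at least 10 cells per animal, 5 inhibitor-treated arthritic animals (TNF-inhibited 2 and 3 and IL-17-inhibited 1 to 3) entered with the 3 healthy animals. Healthy animal 1 was alone in its library, so that the estimate came from the other 2 libraries. Of 6708 genes tested, 45 passed an adjusted p of 0.05 in edgeR's quasi-likelihood test (0.671%), 38 higher (0.566%) and 7 lower (0.104%). With a minimum of 5 cells all 12 animals entered, and 67 of 4973 genes passed (1.35%), 50 higher (1.01%) and 17 lower (0.342%). At an unadjusted p under 0.05, 603 genes (8.99%) passed with the minimum of 10 cells. The CPM of arthritic and healthy animals did not overlap in 38 of the 45 called genes, and in 52 of the 67 with all 12 animals. The share without overlap over all genes tested was not counted, so these counts are no result about the called genes. The rule that named genes by fold change also asked for groups that do not overlap, so lack of overlap in those genes below is no added result. Without healthy animal 2, only S100a8 and 2610528A11Rik passed, and every other call within libraries was lost. The estimate then came from the IL-17-inhibited library alone, with 1 healthy animal. A smaller comparison and a dependence on healthy animal 2 therefore cannot be told apart. Without healthy animal 3, 7 genes passed, and without IL-17-inhibited animal 3, 14 passed.

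The calprotectin genes S100a8 and S100a9, whose products form an antimicrobial complex typical of neutrophils and of inflamed epidermis, were higher in arthritic keratinocytes. S100a8 (chromosome 3, 90668978 to 90670035, plus strand) had 4841, 934 and 1507 CPM in TNF-inhibited animals, 1392, 3152 and 1591 CPM in IL-17-inhibited animals, and 4475, 847 and 6477 CPM in untreated arthritic animals. In healthy animals it had 0, 3.14 and 10.7 CPM, so that the groups were far from overlapping. The log2 fold change of arthritic over healthy was 7.93 ± 0.55 (SE, adjusted p = 0.000137), and S100a8 passed under every alternative setting, with adjusted p at most 0.0235. Without the healthy cells that held a Y-linked UMI, the log2 fold change was 8.36 for S100a8, 2.09 for B2m, 2.23 for H2-K1, 7.65 for Cd74 and -5.16 for Akr1c18, all with the call kept, and 3.45 for Lcn2 in place of 2.25. Slpi, H2-T23, Psmb9 and Efemp1 then did not pass (adjusted p = 0.0800, 0.0800, 0.0637 and 0.0720). CPM of single animals here and below use library sizes scaled by edgeR.

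S100a9 (chromosome 3, 90692632 to 90695721, minus strand) had 5261, 566 and 1269 CPM in TNF-inhibited, 1429, 4705 and 1141 CPM in IL-17-inhibited, and 4472, 193 and 5640 CPM in untreated arthritic animals. The healthy animals had 0, 1.05 and 13.4 CPM, and the groups did not overlap. The log2 fold change was 7.98 ± 0.89 (SE, adjusted p = 0.00276), and without healthy animal 2 the adjusted p was 0.0677.

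Free RNA in droplets can give UMIs of a gene to cells that do not express it, and annotated fibroblasts served as the comparison. S100a8 was found in 61.2% of the 165 arthritic keratinocytes, against 6.32% of the 95 healthy keratinocytes. In annotated fibroblasts it was found in 11.5% of arthritic and 7.69% of healthy cells, so that the healthy keratinocytes did not exceed the fibroblasts. Median depth was 27773 UMIs in arthritic and 21451 UMIs in healthy keratinocytes, and 16416 UMIs in arthritic and 9586 UMIs in healthy fibroblasts. With every cell thinned to 2000 UMIs, the share was 46.1% in arthritic keratinocytes and 0% in healthy keratinocytes. None of these 165 and 95 keratinocytes was too shallow to be thinned.

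Within clusters, S100a8 was compared as a description, from pooled cells. In the cluster of 72 cells, arthritic cells had 665 CPM and healthy cells 1.44 CPM, from 9 and 37 cells. Arthritic sebaceous gland-like cells had 233 CPM and healthy ones 20.04 CPM, from 40 and 12 cells, and arthritic cycling-like cells had 2954 CPM against 0 UMIs in 9 healthy cells. In arthritic cells of the suprabasal-like cluster with Sprr genes, S100a8 reached 5538 CPM, with no healthy cell to compare. In the mixed cluster of 35 cells S100a8 was near 0 in both, with 1 UMI in 9 arthritic and 0 UMIs in 12 healthy cells, and S100a9 stood at 8.08 CPM in arthritic and 12.2 CPM in healthy cells.

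Cystatin and acute-phase genes showed the same direction. Cstdc5, a member of the stefin A family of protease inhibitors, had 1653, 257 and 902 CPM in TNF-inhibited, 373, 2556 and 774 CPM in IL-17-inhibited, and 1719, 36.1 and 984 CPM in untreated arthritic animals, against 8.33, 23.03 and 8.05 CPM in healthy animals. Its groups did not overlap, with a log2 fold change of 5.67 ± 1.03 (SE, adjusted p = 0.0345). The stefin A genes are near copies of each other, so that the share of each in these counts is uncertain. Lcn2, which encodes the siderophore-binding lipocalin 2, had 1460, 1406 and 818 CPM in TNF-inhibited, 1132, 418 and 715 CPM in IL-17-inhibited, and 1323, 1557 and 1668 CPM in untreated arthritic animals, against 77.7, 174 and 208 CPM in healthy animals.

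The log2 fold change of Lcn2 was 2.25 ± 0.40 (SE, adjusted p = 0.0315). Fibroblasts express Lcn2 strongly, at 4957 CPM in arthritic and 402 CPM in healthy animals, so its level in keratinocytes was 18.1% of theirs in arthritis. For comparison, the fibroblast genes Dcn, Col3a1, Lum and Col1a2 in arthritic keratinocytes reached 4.47%, 1.90%, 2.49% and 6.28% of their fibroblast levels. The part of fibroblast RNA in the Lcn2 difference was not tested.

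Il13ra2, which encodes a decoy receptor for IL-13, had 10.1 to 56.0 CPM in the 9 arthritic animals and 0 to 2.78 CPM in the healthy animals, and passed with adjusted p = 0.0124. From 2 healthy UMIs, the pooled ratio of arthritic to healthy was 32.8 (95% counting interval 8.94 to 274). Smpdl3a, which encodes a secreted phosphodiesterase of the acid sphingomyelinase family, had 61.4 to 122 CPM in arthritic and 9.40 to 13.9 CPM in healthy animals, a log2 fold change of 2.94 ± 0.33 (SE, adjusted p = 0.00276). Orm1, an acute-phase plasma protein gene, had 51.5 to 268 CPM in arthritic and 2.78 to 21.5 CPM in healthy animals (log2 fold change 2.69 ± 0.45 SE, adjusted p = 0.0258). None of these 3 overlapped between the groups, as the rule for naming genes required.

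Some of these genes belong to lists of known epidermal responses. Of 14 tested genes of the IL-17 response, 4 were higher (S100a8, S100a9, Lcn2 and the protease inhibitor Slpi) and 0 lower, with a median log2 fold change of 1.25, against 0.00 over all genes tested. The groups overlapped for Slpi, with 101 to 156 CPM in the arthritic animals with an inhibitor other than IL-17-inhibited animal 1, which had 300 CPM, and 17.8 to 194 CPM in the healthy animals. Of 17 tested wound and hyperproliferation genes, 2 were higher and both were calprotectin genes (median 0.75). With all 12 animals 4 of 19 were higher (S100a8, S100a9, Plaur and Stfa1; median 2.01). Of 14 tested TNF and NF-kB response genes, 0 passed (median 0.18).

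**Figure D3:**
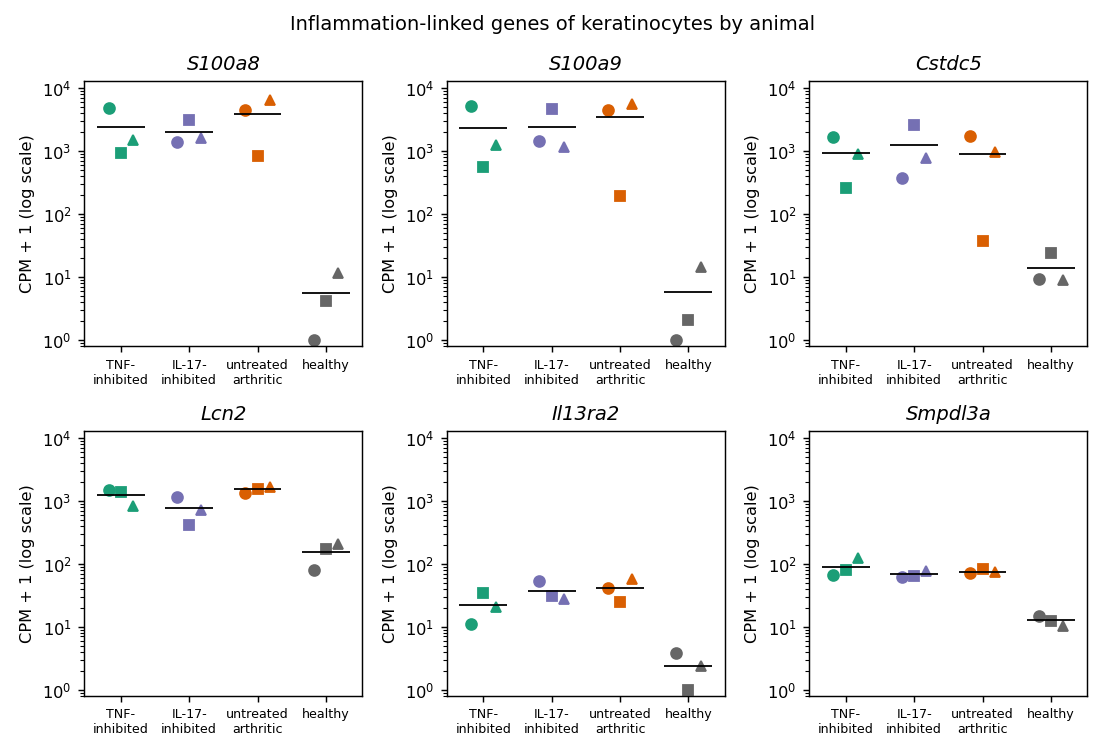
CPM per animal of S100a8, S100a9, Cstdc5, Lcn2, Il13ra2 and Smpdl3a in keratinocytes of the 4 groups; each point is 1 animal and the black line is the group mean. In all 6 panels every arthritic animal lies above the 3 healthy animals, while the ranges of the arthritic groups overlap except for Lcn2 between IL-17-inhibited and untreated animals.

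The promoters of S100a8 and S100a9 are shown because these 2 genes of 1 chromosome rose together, with TATAAA in capitals. They are RefSeq sequences of build GRCm38.p6, 250 bases before and 50 after RefSeq's start of each gene, at chr3:90668821-90669120 on the plus strand and chr3:90695672-90695971 on the minus strand.
S100a8: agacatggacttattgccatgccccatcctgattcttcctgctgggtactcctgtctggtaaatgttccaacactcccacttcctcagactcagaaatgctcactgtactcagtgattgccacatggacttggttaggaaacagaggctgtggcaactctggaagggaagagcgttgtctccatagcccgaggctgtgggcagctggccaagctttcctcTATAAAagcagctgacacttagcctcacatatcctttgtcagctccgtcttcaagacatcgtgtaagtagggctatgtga
S100a9: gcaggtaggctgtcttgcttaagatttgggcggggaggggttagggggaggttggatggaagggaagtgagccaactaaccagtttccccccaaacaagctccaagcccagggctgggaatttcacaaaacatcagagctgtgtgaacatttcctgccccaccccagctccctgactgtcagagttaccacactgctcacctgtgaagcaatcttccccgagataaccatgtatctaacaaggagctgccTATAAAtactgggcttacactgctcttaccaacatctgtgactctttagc
TATAAA was found on either strand in 13.6% of 32851 promoters of the same length. In S100a8 it began at position -30, counted with the RefSeq start as 0, and in S100a9 at position 0. The RefSeq start of S100a8, 90669071, lies inside the gene span given above, and that of S100a9, 90695721, is the end of its span.

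MHC genes were higher in keratinocytes of the inhibitor-treated arthritic animals. Of 15 tested genes of antigen presentation, 10 were higher and 0 lower, with a median log2 fold change of 2.26: B2m, H2-K1, H2-D1, H2-Q4, H2-T23, Tap1, Nlrc5, H2-Aa, H2-Ab1 and Cd74. With all 12 animals it was 5 of 14 (H2-K1, H2-D1, H2-Aa, H2-Ab1 and Cd74; median 1.72). The summed level of the 18 listed genes was 2745 to 4249 CPM in TNF-inhibited, 2775 to 5077 CPM in IL-17-inhibited, 858 to 1995 CPM in untreated arthritic and 882 to 927 CPM in healthy animals.

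B2m (chromosome 2, 122147686 to 122153083, plus strand), the light chain of MHC class I, had 753, 1030 and 1160 CPM in TNF-inhibited animals and 770, 1130 and 1456 CPM in IL-17-inhibited animals. It had 245, 197 and 468 CPM in untreated arthritic animals and 214, 263 and 252 CPM in healthy animals. All 6 inhibitor-treated animals were above the others, and the untreated arthritic animals overlapped the healthy ones. The log2 fold change within libraries was 2.12 ± 0.26 (SE, adjusted p = 0.00432), and 1.48 ± 0.35 with all 12 animals (SE, adjusted p = 0.0557).

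H2-K1 (chromosome 17, 33996017 to 34000347, minus strand), an MHC class I heavy chain, had 828.8, 1016 and 1288 CPM in TNF-inhibited, 823, 1092 and 1033 CPM in IL-17-inhibited, 378, 321 and 672 CPM in untreated arthritic, and 200, 225 and 247 CPM in healthy animals. Here all 9 arthritic animals were above the healthy ones, and the inhibitor-treated were above the untreated. The log2 fold change was 2.18 ± 0.21 (SE, adjusted p = 0.00151). MHC class I genes share much of their sequence, so that reads may be divided between them in these counts.

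Fibroblasts of the same animals also differed in B2m, with 3034 to 5278 CPM in inhibitor-treated, 1673 to 2547 CPM in untreated arthritic and 682 to 879 CPM in healthy animals. B2m of arthritic keratinocytes was 23.8% and H2-K1 48.8% of the pooled fibroblast level. The part of fibroblast RNA in the keratinocyte differences was not tested.

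MHC class II genes, whose proteins present extracellular peptides and are usual on professional antigen-presenting cells, were found in keratinocytes of inhibitor-treated animals. Most H2-Aa and Cd74 UMIs of arthritic animals lay in the class II cluster, which held 46 arthritic and 1 healthy cell. H2-Aa (chromosome 17, 34282744 to 34287823, minus strand) had 60.6, 20.6 and 38.7 CPM in TNF-inhibited animals and 48.2, 272 and 224 CPM in IL-17-inhibited animals. It had 0, 0 and 24.0 CPM in untreated arthritic animals and 0 CPM in all 3 healthy animals. It was called higher within libraries with adjusted p = 0.0313, and pooled over the 9 arthritic animals it was at least 76.9-fold higher than a floor of 3 counts over the healthy group. IL-17-inhibited animal 2 held 381 of the 534 pooled H2-Aa UMIs, and without it the bound was 32.6-fold. Its partner H2-Ab1 had 25.4 to 305 CPM in the 6 inhibitor-treated animals, 0, 0 and 8.00 CPM in untreated arthritic animals, and 2.78, 0 and 0 CPM in healthy animals (adjusted p = 0.0347).

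Cd74, the invariant chain of MHC class II, had 258, 128 and 135 CPM in TNF-inhibited, 169, 969 and 753 CPM in IL-17-inhibited, 0, 0 and 72.0 CPM in untreated arthritic, and 2.78, 1.05 and 5.37 CPM in healthy animals. Its log2 fold change was 6.84 ± 0.90 (SE, adjusted p = 0.00805). IL-17-inhibited animals 2 and 3 were the highest for all 3 class II genes, and the 6 inhibitor-treated animals did not overlap the untreated or healthy animals for H2-Ab1 and Cd74.

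H2-Aa was found in 29.7% of arthritic keratinocytes and in 0 of 95 healthy ones, and in 5.92% of arthritic and 1.12% of healthy fibroblasts. Its level in arthritic keratinocytes was 1355% of the fibroblast level. Markers of the cells that usually carry class II were near 0: of 14 leukocyte genes, 6 had no UMI in any keratinocyte (Ptprc, Cd3e, C1qa, Cd207, Itgax and Csf3r), and the summed level of the list was 0 to 39.4 CPM in arthritic and 14.9 to 20.9 CPM in healthy animals. Cd207 marks Langerhans cells, the dendritic cells of the epidermis.

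**Figure D4:**
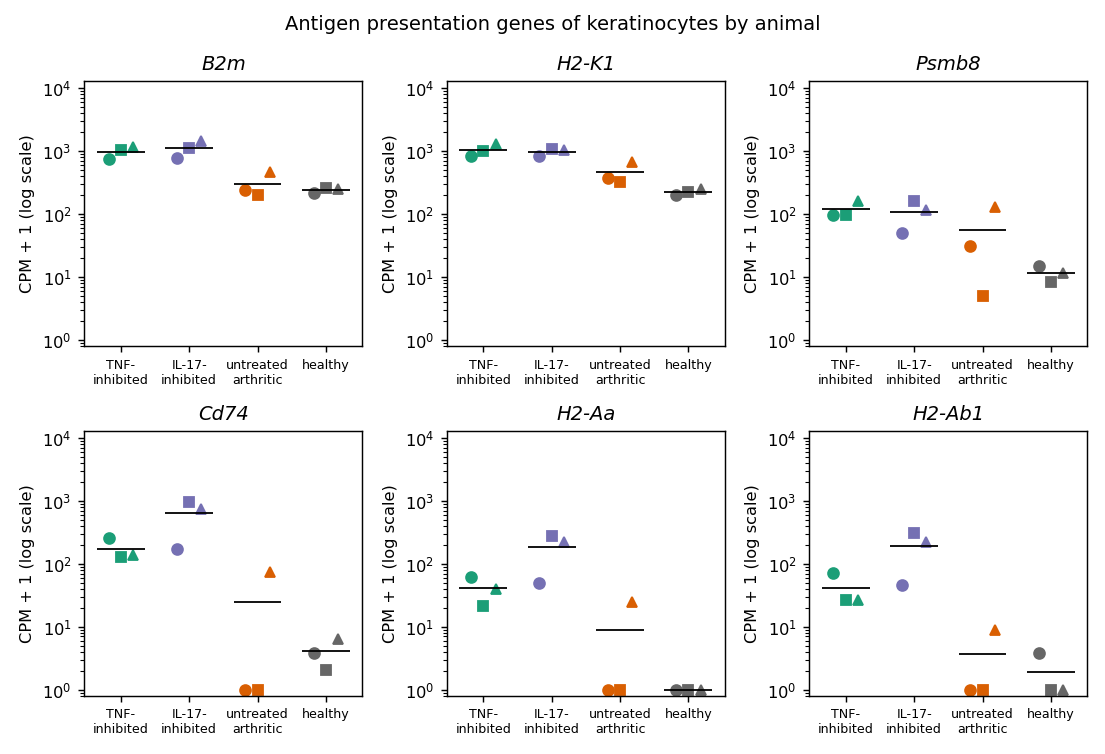
CPM per animal in keratinocytes for the MHC class I genes B2m and H2-K1, the immunoproteasome gene Psmb8 and the MHC class II genes Cd74, H2-Aa and H2-Ab1; each point is 1 animal and the black line is the group mean. For B2m and H2-K1 the 6 inhibitor-treated animals lie above the 3 untreated and 3 healthy animals, and the class II genes are at or near 0 CPM in healthy animals.

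Of 13 tested interferon response genes, 2 were higher and 0 lower (median 1.94), both subunits of the immunoproteasome, which makes peptides for MHC class I. Psmb8 had 96.0, 95.1 and 161 CPM in TNF-inhibited, 48.2, 159 and 115 CPM in IL-17-inhibited, 29.6, 4.01 and 128 CPM in untreated arthritic, and 13.9, 7.33 and 10.7 CPM in healthy animals. The untreated arthritic animals overlapped both other sets. Its log2 fold change was 3.67 ± 0.56 (SE, adjusted p = 0.0174), and that of Psmb9 was 4.04 ± 0.76 (SE, adjusted p = 0.0390).

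The promoters of B2m and H2-Aa are shown because their RNAs were the class I and class II members that the text follows. They are RefSeq sequences of GRCm38.p6 at chr2:122147437-122147736 on the plus strand and chr17:34287774-34288073 on the minus strand. Capitals mark every match to TATAAA or CCAAT on either strand.
B2m: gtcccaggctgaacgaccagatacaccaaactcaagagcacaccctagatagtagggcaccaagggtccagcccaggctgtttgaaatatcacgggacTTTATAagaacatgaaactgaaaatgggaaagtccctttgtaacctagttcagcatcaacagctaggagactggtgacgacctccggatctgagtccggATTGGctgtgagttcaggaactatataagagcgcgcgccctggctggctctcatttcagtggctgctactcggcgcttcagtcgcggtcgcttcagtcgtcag
H2-Aa: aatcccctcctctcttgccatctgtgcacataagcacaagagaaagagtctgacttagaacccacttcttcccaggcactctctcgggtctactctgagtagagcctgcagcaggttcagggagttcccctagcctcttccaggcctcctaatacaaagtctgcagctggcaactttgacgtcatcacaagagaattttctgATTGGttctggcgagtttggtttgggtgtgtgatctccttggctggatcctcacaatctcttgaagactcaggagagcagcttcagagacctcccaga
Both windows held CCAAT, read in reverse as ATTGG, at position -53 in B2m and at -48 in H2-Aa, and B2m also held TATAAA in reverse at -152. Among 32851 promoters of the same length 37.4% held CCAAT, and the S100a8 and S100a9 windows above did not. A match is a stretch of letters and no measured binding site.

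Within libraries, 7 genes were lower in the inhibitor-treated arthritic animals. Akr1c18, which encodes a reductase that inactivates progesterone, had 0, 4.76 and 0 CPM in TNF-inhibited, 1.20, 0 and 2.94 CPM in IL-17-inhibited, and 0 CPM in all 3 untreated arthritic animals, against 391, 93.1 and 32.2 CPM in healthy animals. The groups did not overlap, with a log2 fold change of -4.76 ± 0.50 (SE, adjusted p = 0.00216). Over all keratinocytes it was among the leading genes of the sebaceous gland-like cluster, where 96 of its 205 UMIs were in 1 cell.

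Ccnd1, the G1 cyclin D1, had 9.51 to 38.6 CPM in the 6 inhibitor-treated animals and 41.6, 157 and 142 CPM in healthy animals, and untreated arthritic animal 3 lay among the healthy ones at 72.0 CPM. Its log2 fold change was -2.75 ± 0.37 (SE, adjusted p = 0.00864). Pdk4, a kinase that limits glucose oxidation, had 3.70 to 80.9 CPM in arthritic and 69.8 to 152 CPM in healthy animals, and TNF-inhibited animal 1 was the 1 that overlapped (log2 fold change -2.58 ± 0.38 SE, adjusted p = 0.0153). Id1, an inhibitor of differentiation factors, had 36.1 to 111 CPM in arthritic and 194 to 266 CPM in healthy animals without overlap (log2 fold change -1.58 ± 0.26 SE, adjusted p = 0.0242).

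Untreated arthritic keratinocytes were set against healthy ones in a fit of all 12 animals by group, and 107 of 4973 genes passed (2.15%; 92 without the healthy cells that held a Y-linked UMI), 56 higher (1.13%) and 51 lower (1.03%). Each untreated animal gave 7 to 9 cells, and leaving out 1 of them or of the healthy animals left as few as 10 calls (without healthy animal 2), 32 (healthy animal 3), 27 (untreated animal 1) and 54 (untreated animal 2). S100a8 and S100a9 were again higher, by 9.48 ± 1.06 and 9.27 ± 1.51 on the log2 scale (SE, adjusted p = 0.000741 and 0.0104), and so was Lcn2, by 3.28 ± 0.40 (SE, adjusted p = 0.00141). This fit shares its healthy animals with the comparison within libraries. In all 107 called genes the CPM of untreated arthritic and healthy animals did not overlap. The share without overlap over all genes tested was not counted, so this is no result about the called genes. Stfa1, another stefin A, had 430, 68.2 and 112 CPM in untreated arthritic animals and 0, 2.09 and 6.71 CPM in healthy animals (adjusted p = 0.0327).

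Of 15 tested genes of glycolysis and hypoxia, 5 were higher in untreated arthritic keratinocytes and 0 lower (Aldoa, Tpi1, Gapdh, Pgk1 and Hif1a; median 0.88, against -0.01 over all genes tested). Gapdh had 1063, 1095 and 1212 CPM in untreated arthritic animals and 550, 615 and 638 CPM in healthy animals, a log2 fold change of 0.90 ± 0.15 (SE, adjusted p = 0.0119). Hif1a, the oxygen-regulated transcription factor, had 315, 313 and 252 CPM against 144, 109 and 164 CPM in healthy animals, a log2 fold change of 1.08 ± 0.21 (SE, adjusted p = 0.0187). Neither gene overlapped between the groups. Within libraries, Aldoa alone passed among 19 tested genes, but 18 of the 19 had a positive fold change (median 0.60), and with all 12 animals Aldoa, Gapdh, Pgk1 and Hif1a passed (4 of 15, median 0.80). The summed level of the list was 4158 to 4614 CPM in TNF-inhibited, 3993 to 4362 CPM in IL-17-inhibited, 4617 to 4812 CPM in untreated arthritic and 2829 to 3127 CPM in healthy animals, so that all 9 arthritic animals were above the healthy ones.

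Immediate early and heat shock genes, which respond within minutes to growth signals and to stress and also to tissue dissociation, were lower in the sums of untreated arthritic keratinocytes. Of 22 tested, 6 were lower and 0 higher (Jun, Junb, Egr1, Atf3, Ier2 and Hspa1a; median -1.10). Egr1 had 152, 156 and 208 CPM in untreated arthritic animals and 1099, 1279 and 462 CPM in healthy animals, a log2 fold change of -2.46 ± 0.38 (SE, adjusted p = 0.00774). The groups did not overlap. Pooled levels of Egr1, Jun and Atf3 were highest in the Krt2 cluster (1244, 2480 and 1778 CPM), which held 1 of the untreated and 24 of the healthy cells. In the sebaceous gland-like cluster, from 11 untreated and 12 healthy cells, Egr1 stood at 64.1 CPM in untreated cells against 905 CPM in healthy cells, and Jun at 574 CPM in untreated cells against 2084 CPM in healthy cells. In the cluster of 72 cells, Egr1 stood at 761 CPM in its 1 untreated cell, against 595 CPM in 37 healthy cells. Within libraries, in the inhibitor-treated animals, 0 of 22 passed (median -0.13), and 847, 895, 514, 475 and 582 CPM of Egr1 in those 5 animals overlapped the healthy range.

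Icam1, an adhesion molecule induced by NF-kB, and Rel, an NF-kB subunit, were the 2 of 14 TNF and NF-kB response genes that passed in untreated arthritic keratinocytes, and both were lower. Icam1 had 70.4, 40.1 and 96.0 CPM in untreated arthritic and 291, 363 and 358 CPM in healthy animals (log2 fold change -2.29 ± 0.39 SE, adjusted p = 0.0119). Notch1, the receptor that drives suprabasal commitment, had 63.0, 56.2 and 116 CPM against 192, 162 and 164 CPM in healthy animals (log2 fold change -1.13 ± 0.24 SE, adjusted p = 0.0308). No MHC gene of 14 tested passed in this comparison, and B2m differed by 0.31 ± 0.31 on the log2 scale (SE, adjusted p = 0.650). With library as a term, 3 genes passed in place of 107: Lcn2, Akr1c18 and Egr1.

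Other named genes of this comparison were of smaller level. Klk6, an epidermal protease, had 59.3, 16.1 and 100 CPM in untreated arthritic animals and 1 UMI in all healthy animals, and it had 0 CPM in 4 of the 6 inhibitor-treated animals. In the sebaceous gland-like cluster 5 of 11 untreated cells held 45 Klk6 UMIs and 12 healthy cells held 1. Klk6, and Mbd1 among the lower genes, did not pass without the healthy cells that held a Y-linked UMI (adjusted p = 0.0559 and 0.0666). Prss12, a further serine protease, had 29.6, 64.2 and 60.0 CPM in untreated arthritic against 5.55, 2.09 and 8.05 CPM in healthy animals (adjusted p = 0.0187). Among lower genes, Arc had 7.41, 8.03 and 12.001 CPM against 44.4, 54.4 and 53.7 CPM in healthy animals (adjusted p = 0.0164). Kif13a, Mbd1, Hspb8, Kat6b and Zfp217 were also lower, with log2 fold changes of -3.77 to -2.43.

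No gene passed when keratinocytes of TNF-inhibited or IL-17-inhibited animals were set against those of untreated arthritic animals. Of 4973 genes, 0 passed (0%) in edgeR for either inhibitor, with 518 (10.4%) and 440 (8.85%) genes at an unadjusted p under 0.05, and DESeq2 called 24 for TNF inhibition and 16 for IL-17 inhibition. B2m was higher than in untreated arthritic animals by 1.69 ± 0.32 on the log2 scale under TNF inhibition (SE, adjusted p = 0.121) and by 1.88 ± 0.32 under IL-17 inhibition (SE, adjusted p = 0.0750). All 14 tested MHC genes had a positive fold change in both comparisons, with medians of 1.63 and 1.52, and none passed. The 2 comparisons share their untreated animals, and treatment is here also library.

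S100a8 did not pass in either, with log2 fold changes of -0.70 ± 0.67 under TNF inhibition and -0.94 ± 0.67 under IL-17 inhibition (SE, adjusted p = 0.736 and 0.704). The values given above for S100a8 overlapped among the 3 arthritic groups. All 22 immediate early and heat shock genes had a positive fold change under IL-17 inhibition and 21 under TNF inhibition, with medians of 0.83 and 1.08, and none passed. Egr1 had 379, 847 and 895 CPM in TNF-inhibited and 514, 475 and 582 CPM in IL-17-inhibited animals, all above the 152 to 208 CPM of untreated animals.

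No gene of the lists for epidermal layers and appendages passed the test between arthritic and healthy keratinocytes within libraries. For the basal list 0 of 18 genes passed (median -0.27), for the suprabasal list 0 of 13 (median -0.27), for the outer root sheath and bulge 0 of 16 (median 0.53) and for the sebaceous gland 0 of 8 (median 0.57), all against 0.00 over all genes tested. With all 12 animals the suprabasal median was 0.24, with 9 of 13 genes positive and 0 called. Few genes of 2 other lists could be tested, 4 of the granular and cornified list and 2 of the inner root sheath and hair. The summed level of the inner root sheath and hair list was 47.8 to 81.0 CPM in arthritic and 103 to 227 CPM in healthy animals. These sums did not overlap and were not tested. Krt14 and Krt5 are members of the basal list and were used by the rule, so their levels say nothing of the basal programme. Krt15, a keratin of basal and bulge cells, had 63.0 to 1037 CPM in arthritic animals and 414, 1550 and 1303 CPM in healthy animals, with a log2 fold change of -1.59 ± 0.41 (SE, adjusted p = 0.159).

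In the suprabasal list Sfn had 2306 to 6944 CPM in arthritic and 3023 to 4696 CPM in healthy animals, and Ly6d had 1791 to 4877 and 1416 to 3961 CPM. Krt17, a keratin of the outer root sheath and of stressed epidermis, had 837 to 2452 CPM in arthritic and 492 to 1915 CPM in healthy animals, and Plet1, a marker of the upper follicle, had 541 to 1486 and 600.0 to 1157 CPM. The sebaceous genes Mgst1 and Scd1 had 203 to 754 and 108 to 850 CPM in arthritic and 265 to 538 and 173 to 569 CPM in healthy animals. In each of these genes the arthritic range covered or overlapped the healthy one.

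Wound keratins varied between animals of 1 group. Krt6a had 2436, 376 and 129 CPM in TNF-inhibited, 453, 788 and 288 CPM in IL-17-inhibited, and 70.4, 12.04 and 752 CPM in untreated arthritic animals, against 16.7, 115 and 220 CPM in healthy animals. Krt16 had 2345, 645 and 122 CPM in TNF-inhibited, 426, 1831 and 306 CPM in IL-17-inhibited, and 330, 225 and 1420 CPM in untreated arthritic animals, against 1041, 427 and 515 CPM in healthy animals. Both keratins overlapped between arthritic and healthy animals and neither passed, with log2 fold changes of 1.26 ± 0.43 and 0.38 ± 0.69 (SE, adjusted p = 0.345 and 0.934).

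Of 19 tested cell cycle genes 0 passed within libraries (median -0.22), and Mki67 had 5.05 to 140 CPM in arthritic and 65.8 to 316 CPM in healthy animals. Desmosome genes (0 of 16, median -0.12), Notch genes (0 of 7, median -0.24), Wnt and EGFR genes (0 of 9, median -0.17) and epidermal cytokines and receptors (0 of 16, median 0.24) had no call either. Of 13 epidermal transcription factors, Ehf, an epithelial ETS factor, was higher, with 119 to 223 CPM in the 6 inhibitor-treated animals, 28.1 to 120 CPM in untreated arthritic animals and 11.1 to 36.2 CPM in healthy animals (log2 fold change 2.09 ± 0.30 SE, adjusted p = 0.0136).

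**Figure D5:**
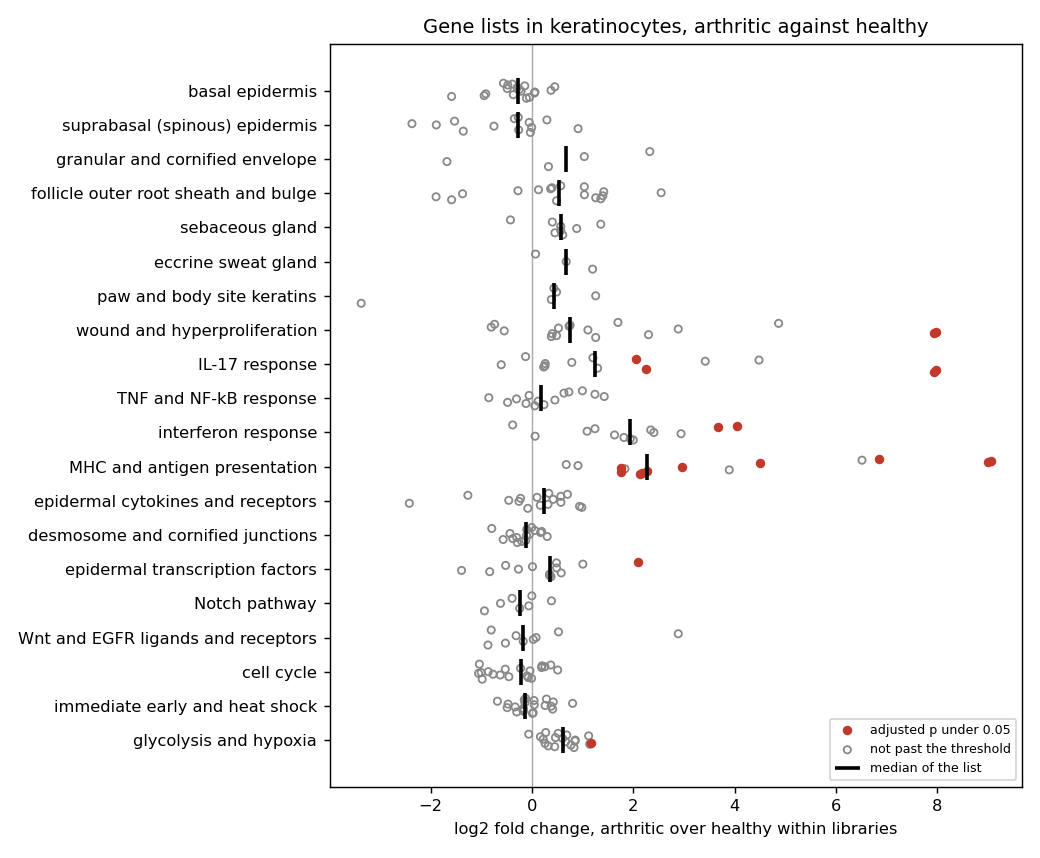
Log2 fold change of each tested gene by list, for arthritic over healthy keratinocytes within libraries; points are genes and the line of each list is its median. MHC genes lie highest with a median of 2.26, while the basal and suprabasal lists have medians of -0.27.

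Markers of other cells were followed in the same animals. The summed level of 14 fibroblast genes was 827 to 3340 CPM in arthritic keratinocytes and 1214 to 2514 CPM in healthy ones, and Pdgfra was 0 by the rule. Endothelial genes summed to 0 to 127 CPM in arthritic and 5.41 to 20.9 CPM in healthy animals, mural genes to 0 to 232 and 41.3 to 98.7 CPM, and melanocyte genes to 0 to 18.7 and 8.12 to 29.9 CPM. All 4 haemoglobin genes were at 0. With cells of under 10 fibroblast UMIs only, 27 genes passed within libraries, and 12 of the 45 were among them. Without healthy cells that held a Y-linked UMI, 52 genes passed and 40 of the 45 were among them.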

How the data were processed

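Single-cell RNA was measured from 3' transcript ends (10x Genomics) in 4 libraries. The deposited matrices held raw UMI counts of 32285 genes and hashtags, made by the authors with Cell Ranger 6.0.6 and genome build mm10 per the submitters' processing notes. Columns of the deposited annotation were used only to find annotated barcodes and fibroblasts, and to give fibroblasts to animals by the authors' hashtag calls. The keratinocytes and gene lists were chosen with earlier results of these data known.

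Hashtags were called per library with HTODemux (Seurat 5.3.0, quantile 0.99), and only cells given to an animal entered the sums and shares per animal. The clusters and the levels over all keratinocytes kept all 349 cells, with the 6 called as 2 animals and the 83 with no clear hashtag. No other doublet caller was run. Cells were clustered with scanpy 1.11.5 (1000 variable genes, 20 components, 15 neighbours, Leiden resolution 0.5). The cells of an animal were added up, and edgeR 4.0.16 in R 4.3.3 was run on the sums (TMM, filterByExpr, quasi-likelihood, Benjamini-Hochberg, threshold 0.05), after tests on simulated data. The planned minimum of 10 cells per animal could not be fitted for the comparisons with untreated arthritic animals, which had 7 to 9 cells, so 5 was used there, chosen after seeing the data. Depth was 160514 to 1533476 UMIs per animal over its keratinocytes. Animals were the replicates. Share tests were exact permutations. Named genes were up to 10 per direction with the largest fold changes that passed, averaged 20 CPM or more in the higher group and did not overlap, plus list members. Promoters came from RefSeq and covered 10 of 15 named genes. Intervals and floors cover counting error only. DESeq2 1.42.0, other filters, hashtag calls, scalings and left-out animals were alternatives. List and pooled levels are CPM without TMM scaling. Of the named genes, 1 that the naming rule picked is not reported here.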

Additional observations from a re-analysis of the deposited data

Results flagged for a closer look

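The 2 values below stood far from the others of the 9 arthritic animals, by the gap of the extreme animal to its neighbour relative to the whole range. They were found among 25 measures examined, a count that holds H2-Aa, H2-Ab1 and Cd74 2 times each. Chance flags about 1 in 20 such groups. Pdk4 was at 80.9 CPM in TNF-inhibited animal 1, while the other 8 arthritic animals had 3.70 to 38.05 CPM. Efemp1, an extracellular matrix gene, was at 36.0 CPM in untreated arthritic animal 3, while the others had 2.94 to 12.9 CPM. These 2 animals gave 9 and 8 keratinocytes, and neither entered the comparison within libraries at its minimum of 10 cells.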

How the results depend on the processing

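Counts of called genes depended on the settings. For untreated arthritic against healthy keratinocytes, 107 became 170 with DESeq2, 339 with no filter on low counts, 3 with a library term and 11 with cells thinned to 2000 UMIs. Leaving out 1 animal gave 10 to 99, with 10 without healthy animal 2, 32 without healthy animal 3, and 27 and 54 without untreated animals 1 and 2. Within libraries, 45 became 71 with hashtags called at quantile 0.95, 77 with the margin rule for hashtags, 6 with 25 cells per animal, 236 with no filter, 24 with no scaling beyond library size, 15 after thinning and 27 with under 10 fibroblast UMIs. Leaving out 1 animal gave 2 to 66: S100a8 and 2610528A11Rik without healthy animal 2, 7 genes without healthy animal 3 and 14 without IL-17-inhibited animal 3. Settings chosen after seeing the data gave 67 (5 cells), 62 (5 cells, no library term), 52 (no Y-linked cells) and 36 (without the cluster of 72 cells). Of single genes within libraries, 377 values kept their call and direction and 179 lost the call, with 0 reversed.

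TNF-inhibited against untreated gave 24 with DESeq2, 190 with no filter and 0 to 1 with 1 animal left out. IL-17-inhibited against untreated gave 16 with DESeq2, 6 at quantile 0.95, 180 with no filter and 0 to 6 with 1 animal left out. The log2 fold change of S100a9, with no call, was -1.94 to 0.018 (TNF inhibition) and -1.42 to 0.078 (IL-17 inhibition) with 1 animal left out, above 0 without untreated animal 3, and 0.14 under IL-17 inhibition with the replicate block. The replicate block gave 0 calls for either inhibitor; the numbers do not pair the animals, whose deviations correlated at -0.28 to 0.21. The share difference was -5.91 to -2.48 points with 1 animal left out, and F among arthritic groups 1.27 to 12.8. A minimum of 25 cells and the fibroblast limit could not be run against untreated animals. The causes were not tested.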
